A study of Mus musculus with 8 samples.

Results

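Interleukin 10 (IL-10) and the chains of the receptors for IL-10, type I interferon, interferon gamma and interferon lambda were followed in neutrophils taken from mouse lungs. The set comprised 8 genes, the ligand Il10 and the receptor chains Il10ra, Il10rb, Ifnar1, Ifnar2, Ifngr1, Ifngr2 and Ifnlr1. They were picked by gene symbol among the 19832 symbols matched to the 24625 rows of the expression table, and each had 1 row. All mice were wild type and by their labels 6 to 12 weeks old, while the study's methods give a narrower range within it. Bacteria of the species Streptococcus pneumoniae (SP), a common cause of pneumonia, or the same volume of buffer alone (PBS, phosphate-buffered saline) were instilled in the left lung by way of the trachea, at 2.3 µl per g of body weight. Lungs were taken after 24 h and digested, and neutrophils were pulled out with antibody-coated magnetic beads. Total RNA of 4 PBS and 4 SP samples was then hybridised, each on 1 Affymetrix Mouse Gene 1.1 ST array. By the study's account each sample came from a mouse of its own.

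IL-10 is the cytokine best known for restraining inflammation, and it silences inflammatory genes in myeloid cells through the transcription factor STAT3. It binds IL10RA, which then joins IL10RB. Type I interferons, such as interferon beta, bind IFNAR1 and IFNAR2 and signal to the nucleus with the help of STAT2 and IRF9. Interferon gamma binds IFNGR1, which pairs with IFNGR2 and signals through Janus kinases. Interferon lambda binds IFNLR1, which uses IL10RB as its partner. All of these chains belong to the class II cytokine receptor family, and each receptor needs both of its chains.

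Expression values were log2 intensities, so 1 unit is a 2-fold difference, and because probes differ in brightness, values of different genes do not rank their amounts of RNA. SP was compared with PBS by limma over all rows with Benjamini-Hochberg adjustment, and a gene was called at an adjusted p of at most 0.05. Of the 8 genes, 6 were higher and 1 was lower in SP, where 21.5% of all rows were called higher, 22.6% lower and 44.1% in either direction. Il10, Il10ra, Il10rb and Ifnar1 were at least 2-fold higher, a change called in 6.37% of all rows upwards and in 17.6% in either direction. The 4 SP values lay wholly above the 4 PBS values for 6 genes, as they did in 27.2% of all rows, and wholly below them for 1 gene, as in 21.8%. The median difference of the 8 genes was 0.92 log2 units, against 0.10 over all rows. With the arrays centred on their medians, 6 genes were called higher and 0 lower, and of all rows 57.7% were then higher and 16.4% lower, with a median of 0.38. The arrays hold RNA of a bulk sample, in which fewer cells of a type and less RNA per cell cannot be told apart.

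**Figure D1:**
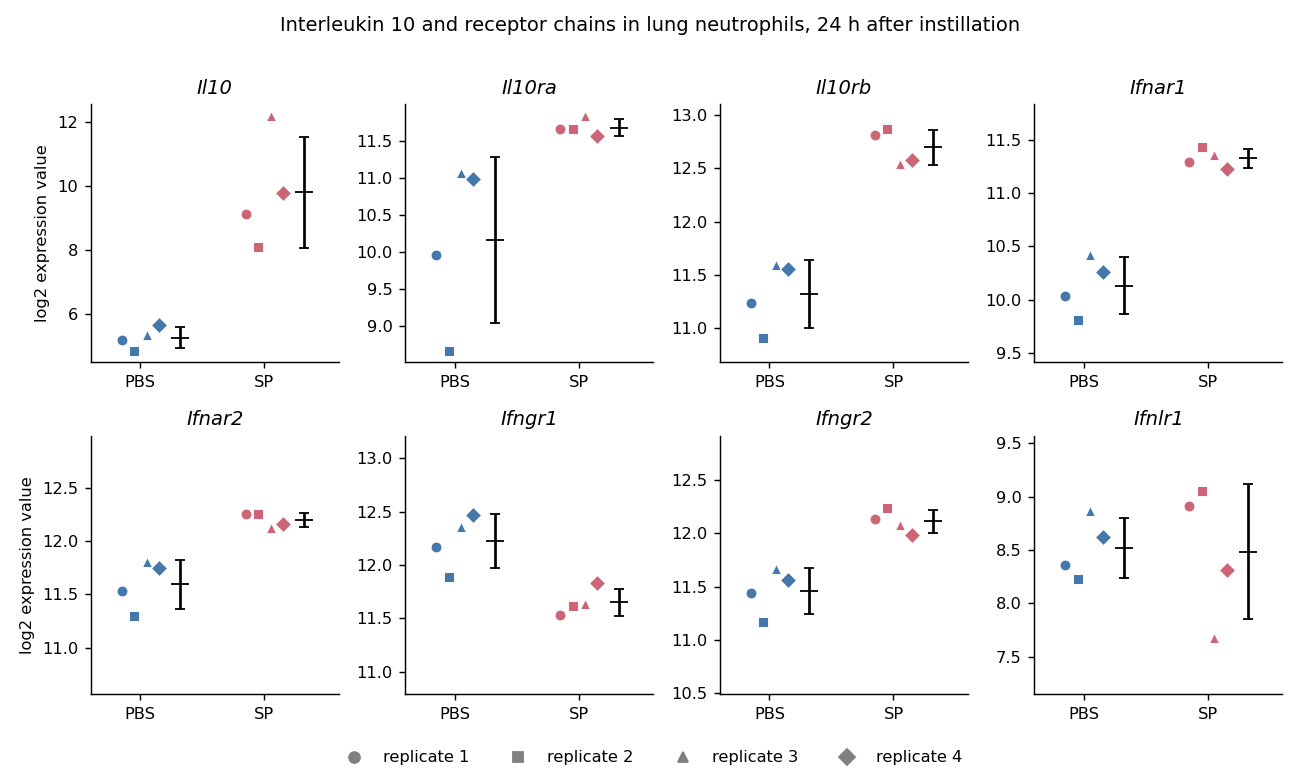
Log2 expression value (y axis, each panel with its own range) of Il10 and the 7 receptor chains on the 4 PBS and 4 SP arrays. Symbols mark the replicate number, and the bar beside each group shows its mean with the SD. The groups do not overlap in any panel but that of Ifnlr1, and Ifngr1 is the gene whose SP values lie wholly below its PBS values.

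The samples were first checked for their cell type and for arrays that stood apart. Neutrophil markers were bright on every array, and the mean of 9 of them, Lcn2 and Retnlg included, ran from 12.92 to 13.14 in PBS and from 12.34 to 13.13 in SP, with 3 called lower. RNA of lung epithelium was present too. Its 9 measured markers, Scgb1a1 and Sftpc included, averaged 11.37 to 11.88 in PBS and 9.77 to 10.55 in SP, and 9 of 9 were called lower. Markers of endothelium (6 of 7), B cells (7 of 7) and alveolar macrophages (6 of 9 lower, 1 higher) also fell, while 5 of 10 monocyte and macrophage markers rose and 0 fell. Of T cell markers, 2 of 8 were called higher, and calls among NK cell (0 of 6), fibroblast (1 of 6 lower) and dendritic cell markers (1 higher and 2 lower of 8) were few. No marker of these lists stayed at the level of Y-linked genes (4.33 to 4.90 over all arrays, taken here as background) on all arrays except Foxp3. Some dendritic and NK cell markers were nevertheless close to it, such as Flt3 (mean 4.70 in PBS and 4.61 in SP) and Eomes (4.69 and 4.78). Array medians lay between 5.78 and 6.20, correlations within a group were at least 0.97, and no arrays held equal values. PBS replicate 2 had the lowest PBS value of 8 of the 8 genes, while 36.3% of all rows were lowest there.

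Il10, the ligand, showed the largest change of the 8 genes and the widest spread. Its log2 values were 5.19, 4.86, 5.36 and 5.65 in PBS replicates 1 to 4 and 9.13, 8.09, 12.18 and 9.79 in SP replicates 1 to 4. Every SP value lay more than 2 units above the highest PBS value, and the SP values themselves spanned 4.09 units. The mean (Il10, NM_010548) went from 5.26 ± 0.33 to 9.80 ± 1.73 (SD, n = 4), a difference of 4.53 log2 units with a standard error of 0.75 and a 95% interval of 2.81 to 6.26. Il10 was thus 23.2-fold higher in SP (adjusted p = 0.00175 by limma), measured from PBS values close to the level of Y-linked genes. Without SP replicate 3, the array with the most Il10, the difference was 3.74 (limma, adjusted p = 0.000306). By quantitative PCR in independent samples, the study also found Il10 higher in infected mice, but by a smaller fold than on the arrays.

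Il10 transcripts can come from several leukocytes, so the marker lists were set beside them. SP replicate 3 had the highest Il10 value, and it had the lowest SP level of 9 of the 9 lists of other cell types, among them monocytes and macrophages (8.41 there, 9.40 to 9.72 on the other SP arrays) and B cells (5.76, against 5.87 to 6.89). Low values were general on that array, since 33.9% of all rows and 56.3% of the rows above the median brightness had their lowest SP value there. Its neutrophil list was the brightest of the SP arrays at 13.13, and the SP arrays fell in the same order by Il10 as by the mean of that list. Single neutrophil markers differed in their order. Ngp, with the widest SP range of the list (2.72), was highest in SP replicate 3 at 13.34, while Csf3r was lowest there at 12.67. In PBS the order differed, since Il10 was highest in replicate 4 and the neutrophil list in replicate 3. The source of the transcript was not tested.

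**Figure D2:**
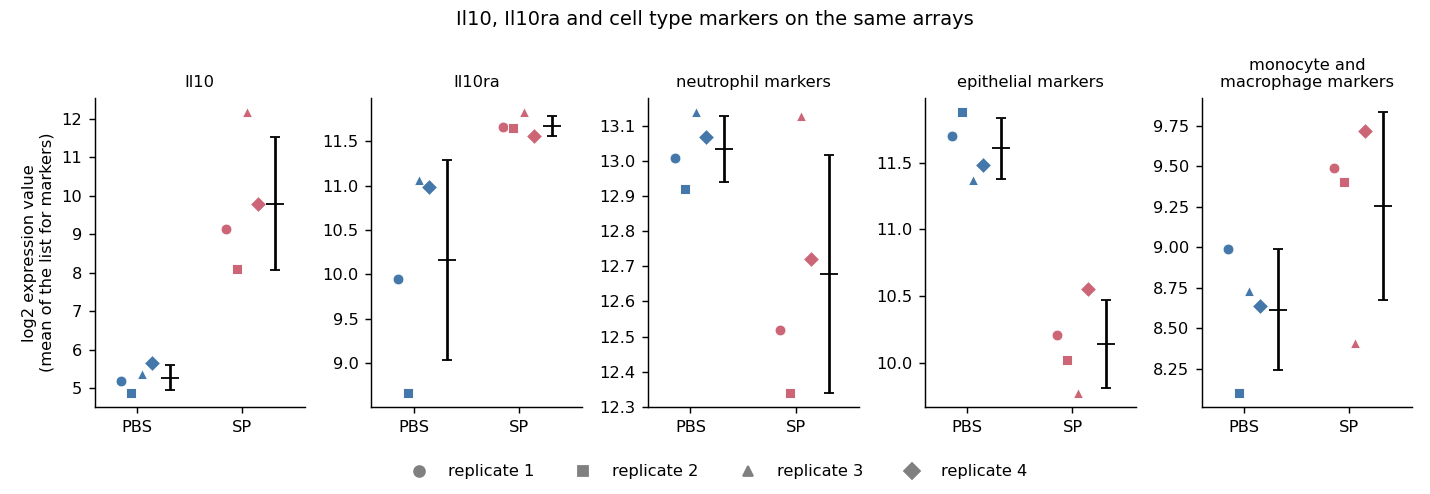
Log2 values of Il10 and Il10ra, and the mean log2 value of the neutrophil, epithelial and monocyte and macrophage marker lists, on the same 8 arrays (y axes differ; symbols mark the replicate number, bars the mean and SD of a group). SP replicate 3 (triangle) has the most Il10 at 12.18, the brightest SP neutrophil list and the lowest SP epithelial and macrophage lists, and PBS replicate 2 (square) has the least Il10ra at 8.66.

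The IL-10 receptor was compared next. Il10ra, which encodes the chain that binds IL-10, had PBS values of 9.95, 8.66, 11.06 and 10.98 and SP values of 11.66, 11.65, 11.83 and 11.56. The SP arrays lay within 0.27 units of each other, whereas the PBS arrays spanned 2.40 units and the highest of them was close to the SP level. The mean of Il10ra (NM_008348) rose from 10.16 ± 1.12 to 11.67 ± 0.11 (SD, n = 4), by 1.51 log2 units (standard error 0.48, 95% interval 0.40 to 2.61), or 2.85-fold (limma, adjusted p = 0.0345). The call depended on the setting. Adjusted p-values were above the threshold with the methods' t-test (0.0742), after a second quantile normalization (0.0629), and by limma on leaving out PBS replicate 1 (0.0834) or SP replicate 1 (0.0724), 2 (0.0655), 3 (0.0677) or 4 (0.0555), with differences of 1.44 to 1.55 in these limma fits. The call held without PBS replicate 3 (1.81, adjusted p = 0.0204 by limma) or 4 (1.78, adjusted p = 0.0264). Leaving out PBS replicate 2, the lowest array, gave a difference of 1.01 (limma, adjusted p = 0.0197). In PBS the order of the arrays by Il10ra (3, 4, 1, 2) was that of the neutrophil list and the reverse of that of the epithelial list, so that replicate 2 had the least Il10ra, the lowest neutrophil list (12.92) and the highest epithelial list (11.88). The part of these in the Il10ra values was not tested.

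Il10rb, which encodes the chain shared by the receptors for IL-10, interferon lambda and IL-22, changed with far less spread. Its values were 11.24, 10.91, 11.59 and 11.56 in PBS and 12.81, 12.87, 12.54 and 12.58 in SP. All SP values stood clear of all PBS values. The mean of Il10rb (NM_008349) rose from 11.32 ± 0.32 to 12.70 ± 0.17 (SD, n = 4), by 1.37 log2 units (standard error 0.16, 95% interval 1.0 to 1.75), or 2.59-fold, with an adjusted p of 0.0003 by limma.

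Both chains of the type I interferon receptor were higher in SP. Ifnar1 had values of 10.03, 9.81, 10.42 and 10.26 in PBS and 11.29, 11.43, 11.36 and 11.22 in SP. The SP arrays were close to each other and all above the PBS arrays. Ifnar1 (NM_010508) rose from 10.13 ± 0.27 to 11.33 ± 0.09 (SD, n = 4), by 1.19 log2 units with a standard error of 0.13 and a 95% interval of 0.89 to 1.5 (adjusted p = 0.000218 by limma). Ifnar2, which also yields a soluble form of the receptor, had values of 11.53, 11.30, 11.80 and 11.75 in PBS and 12.25, 12.25, 12.12 and 12.16 in SP. Again no SP value fell within the PBS range. Ifnar2 (NM_001110498) rose by 0.60 log2 units (standard error 0.12, 95% interval 0.33 to 0.87), short of 2-fold, at an adjusted p of 0.00383 by limma. The row was 1 value for the gene, so soluble and membrane forms were not separated.

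The promoters of these chains are shown because both genes were higher in SP and by unequal amounts. Windows from 250 bases before to 50 bases after the transcription start were taken from RefSeq (GRCm38.p6), in which 5 of the 8 genes had one, and Il10, Il10ra and Il10rb had none. Motifs were searched on both strands. They were the gamma-activated site (GAS, TTCNNNGAA) bound by STAT factors, an interferon regulatory factor (IRF) element (AANNGAAA), the NF-κB consensus and the GC box (GGGCGG, which is CCGCCC on the other strand). Matches may overlap, as GC boxes did in the Ifngr2 window. Capitals mark matches, and the Ifnar1 window (chr16:91484965-91485264, plus strand) and the Ifnar2 window (chr16:91372533-91372832, plus strand) read as follows.
Ifnar1: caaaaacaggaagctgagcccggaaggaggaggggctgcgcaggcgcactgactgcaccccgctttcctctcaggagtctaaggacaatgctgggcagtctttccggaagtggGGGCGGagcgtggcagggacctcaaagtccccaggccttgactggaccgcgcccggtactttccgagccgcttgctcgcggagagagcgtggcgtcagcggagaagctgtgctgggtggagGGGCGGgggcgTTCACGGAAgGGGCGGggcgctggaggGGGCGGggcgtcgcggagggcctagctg
Ifnar2: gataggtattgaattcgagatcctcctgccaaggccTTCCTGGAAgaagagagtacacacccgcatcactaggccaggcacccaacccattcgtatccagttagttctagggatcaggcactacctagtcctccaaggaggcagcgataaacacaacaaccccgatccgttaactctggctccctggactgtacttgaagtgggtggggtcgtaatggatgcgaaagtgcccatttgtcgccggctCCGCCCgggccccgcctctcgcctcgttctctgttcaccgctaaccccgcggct
Each window held 1 GAS match, TTCACGGAA with its first base 5 bases before the start in Ifnar1, and TTCCTGGAA with its first base 214 bases before it in Ifnar2. A GAS match was present in 8.30% of the 32851 windows of this kind. Ifnar1 had 4 GC boxes and Ifnar2 had 1, and 35.7% of windows held at least 1. Neither window matched the IRF element, present in 23.9% of windows, or the NF-κB consensus, present in 4.51%. The letters alone do not show that a factor binds.

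The chains of the interferon gamma receptor went in opposite directions. Ifngr1, which encodes the chain that binds interferon gamma, was the only one of the 8 genes called lower. Its values were 12.17, 11.89, 12.36 and 12.47 in PBS and 11.53, 11.61, 11.63 and 11.83 in SP. The highest SP value was just below the lowest PBS value. Ifngr1 (NM_010511) fell from 12.22 ± 0.25 to 11.65 ± 0.13 (SD, n = 4), and the difference was -0.57 log2 units (standard error 0.13, 95% interval -0.88 to -0.26), or 1.49-fold, at an adjusted p of 0.00958 by limma. With the arrays centred on their medians, which moved SP up by 0.28 on average relative to PBS, the difference was -0.29 and was not called (limma, adjusted p = 0.114). After another quantile normalization it was -0.81.

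Ifngr2, the signalling partner that recruits JAK2, had values of 11.44, 11.17, 11.67 and 11.56 in PBS and 12.14, 12.24, 12.08 and 11.99 in SP. All SP values were above all PBS values. Ifngr2 (NM_008338) rose from 11.46 ± 0.22 to 12.11 ± 0.10 (SD, n = 4), by 0.65 log2 units (standard error 0.12, 95% interval 0.38 to 0.92), or 1.57-fold, at an adjusted p of 0.00272 by limma. Because these chains of 1 receptor moved apart, their promoter windows are printed in the same way, Ifngr1 at chr10:19591699-19591998 and Ifngr2 at chr16:91546809-91547108, both on the plus strand.
Ifngr1: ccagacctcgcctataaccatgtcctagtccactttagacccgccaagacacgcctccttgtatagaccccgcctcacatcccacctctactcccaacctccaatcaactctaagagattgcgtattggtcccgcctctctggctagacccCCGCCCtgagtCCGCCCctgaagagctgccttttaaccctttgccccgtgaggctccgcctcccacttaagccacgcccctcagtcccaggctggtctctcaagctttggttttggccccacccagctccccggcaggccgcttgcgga
Ifngr2: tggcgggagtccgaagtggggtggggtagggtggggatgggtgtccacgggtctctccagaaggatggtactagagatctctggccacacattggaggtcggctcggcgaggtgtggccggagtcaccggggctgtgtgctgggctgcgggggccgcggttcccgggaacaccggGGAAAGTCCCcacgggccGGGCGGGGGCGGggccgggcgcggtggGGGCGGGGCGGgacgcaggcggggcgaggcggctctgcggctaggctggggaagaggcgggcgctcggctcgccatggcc
The Ifngr2 window held 4 GC boxes and 1 match to the NF-κB consensus, GGAAAGTCCC as printed (the consensus reads on the minus strand), with its first base 75 bases before the start. The Ifngr1 window held 2 GC boxes and neither an NF-κB, a GAS nor an IRF match. G and C made up 74.3% of the Ifngr2 window and 60.3% of the Ifngr1 window. For comparison they made up 68.3% for Ifnar1, 57.0% for Ifnar2 and 61.0% for Ifnlr1, whose window held 3 GC boxes and no other match.

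Ifnlr1, which encodes the chain specific to interferon lambda, did not pass the test. Its values were 8.36, 8.23, 8.87 and 8.62 in PBS and 8.91, 9.05, 7.67 and 8.31 in SP. The groups overlapped, and the highest and the lowest value were both in SP. Ifnlr1 (NM_174851) averaged 8.52 ± 0.29 without and 8.49 ± 0.63 with infection (SD, n = 4), and the difference of -0.03 log2 units had a 95% interval of -0.72 to 0.65 (adjusted p = 0.93 by limma). Its sign changed with the scaling of the arrays, to 0.25 with centred arrays. With 4 arrays per group, a true difference anywhere within this interval remained compatible with the values.

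Since each receptor needs both chains, the difference between the log2 values of its chains was taken within each array, in which a shift of a whole array cancels. The level of such a log ratio depends on the probes, so only its change between groups was read. The change was tested by a two-sided exact permutation test over the 70 arrangements of the arrays, whose smallest possible p is 0.0286, and adjusted over the 4 pairs.

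The log ratio of Ifngr1 to Ifngr2 was 0.73, 0.71, 0.69 and 0.90 in PBS and -0.60, -0.63, -0.45 and -0.16 in SP. Thus Ifngr1 lost ground to its partner by 1.22 log2 units (2.33-fold) on average, from 0.76 ± 0.10 to -0.46 ± 0.21 (SD, n = 4), with an exact p of 0.0286 and an adjusted p of 0.0381. Because both chains had already separated the groups, in opposite directions, this p could only be the smallest possible. It adds nothing to the tests of the single genes. For the type I receptor, the log ratio of Ifnar1 to Ifnar2 went from -1.50, -1.49, -1.38 and -1.49 in PBS to -0.96, -0.83, -0.76 and -0.94 in SP. Ifnar1 gained 0.59 log2 units (1.51-fold) on Ifnar2 (exact p = 0.0286, adjusted p = 0.0381), and the groups did not overlap. For the interferon lambda receptor, the log ratio of Ifnlr1 to Il10rb went from -2.88, -2.69, -2.72 and -2.93 to -3.90, -3.82, -4.86 and -4.27. The change was -1.41 log2 units (2.65-fold), with the same exact p of 0.0286 and adjusted p of 0.0381, so the shared chain rose relative to the lambda-specific chain. Ifnlr1 alone differed by -0.03 and Il10rb by 1.37, so this change largely repeats the rise of Il10rb. For the IL-10 receptor, the log ratio of Il10ra to Il10rb was -1.29, -2.25, -0.52 and -0.57 in PBS and -1.14, -1.23, -0.71 and -1.02 in SP. These groups overlapped, and the change of 0.14 did not pass the test (exact p = 0.83). Without PBS replicate 2 it was -0.23.

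**Figure D3:**
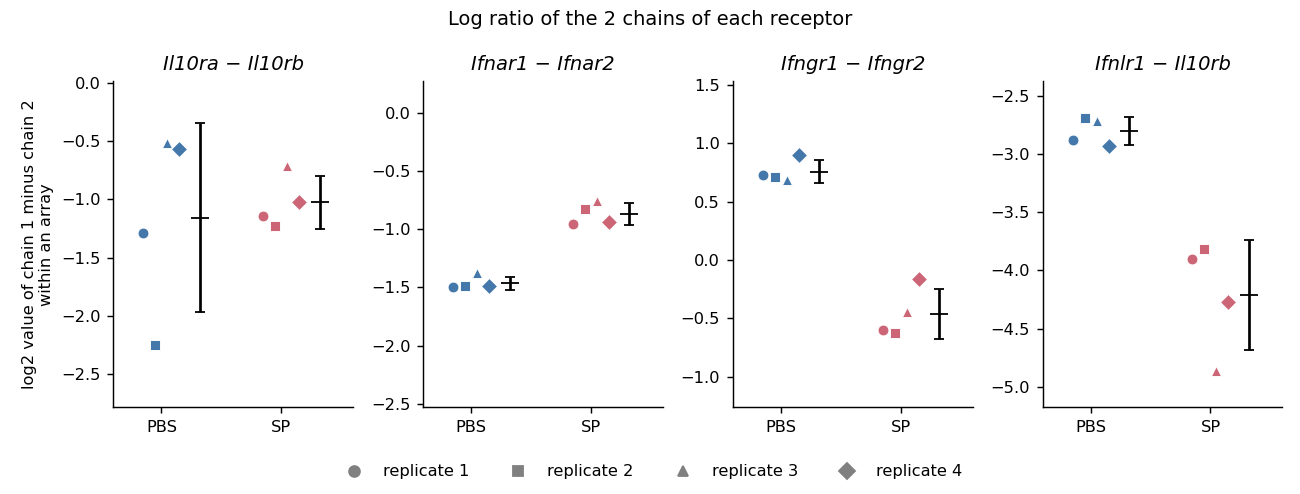
Log ratio of the chains of each receptor within an array (y axis, log2 value of the first-named chain minus that of the second; every panel spans the same number of log2 units) in PBS and SP, with the replicate number as the symbol and the mean and SD of each group as a bar. The groups are apart for Ifnar1 and Ifnar2 (0.59), Ifngr1 and Ifngr2 (-1.22) and Ifnlr1 and Il10rb (-1.41), and overlap for Il10ra and Il10rb (0.14).

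Of the 7 receptor chains, 6 varied less among SP than among PBS arrays. The exception was Ifnlr1, whose SD was 0.29 in PBS and 0.63 in SP, and Il10 likewise varied more in SP. These spreads were not tested. For PBS, replicate 2 was the lowest array in each of these chains, and without it and SP replicate 3 together, a setting chosen after seeing the data, 7 of the 8 genes were called and Il10ra differed by 0.96 (limma, adjusted p = 0.0352).

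Ifnar2, Il10rb, Ifnar1 and Ifngr2 lie next to each other in this order on mouse chromosome 16 among the genes that had a row, and 4 of these 4 were higher in SP, where 21.5% of all rows were. This is the same count as above, arranged by position. The genes on either side did not follow them. Tmem50b, beyond Ifngr2, fell from 12.47 ± 0.04 to 11.35 ± 0.20 (SD, n = 4), or 2.18-fold (adjusted p = 9.06e-05 by limma). Olig1, a transcription factor of the oligodendrocyte lineage beyond Ifnar2, was at the level of absent transcripts (4.41 and 4.47) and its difference of 0.06 missed the threshold (limma, adjusted p = 0.437), which it passed on centred arrays (0.34, adjusted p = 0.00886). The other members lay apart from this run. Il10, on chromosome 1, had as neighbours Il19, of the same cytokine family, which went from 4.23 to 5.03 (adjusted p = 0.000953), and Mapkapk2, a kinase known to stabilise cytokine transcripts, which rose 2.74-fold (adjusted p = 3.66e-05). Ifnlr1, on chromosome 4, lay beside Il22ra1, a chain of the IL-22 receptor, which fell 2.66-fold (adjusted p = 4.17e-05). Epithelial markers fell in the same samples, and the part of epithelial cells in the Il22ra1 values was not tested. Beside Ifngr1, on chromosome 10, Il22ra2, which encodes a soluble IL-22 binding protein, differed by -0.16 and was not called (adjusted p = 0.578).

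The rest of the pathway was read from 8 lists that held 86 genes, 84 of them with a row. Of these, 53 were higher and 4 lower in SP, 33 and 4 of them by at least 2-fold, and 27 were not called. The median difference was 0.76, against 0.10 over all rows. With the arrays centred, 71 were higher and 4 lower, while the share of all rows called higher went from 21.5% to 57.7% and that called lower from 22.6% to 16.4%. The members and lists were chosen with results of these data known, so the counts are a description.

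**Figure D4:**
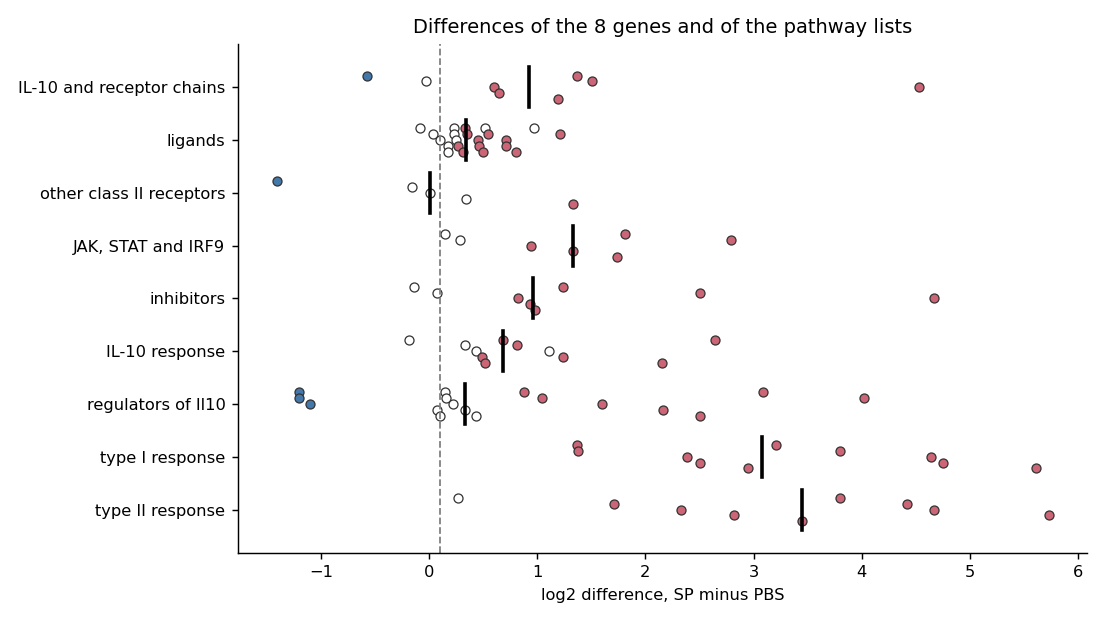
Log2 difference (x axis, SP minus PBS) of each of the 8 genes and of each gene in the 8 pathway lists (rows). Red points were called higher, blue points lower and open points were not called at an adjusted p of 0.05 by limma. Black bars are list medians and the dashed line is the median of all rows (0.10). The type I and type II response lists lie farthest to the right, with medians of 3.08 and 3.45.

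Most ligands were close to background. Of the 22 ligands with a row, 15 were at the level of Y-linked genes (at most 4.90) on all PBS arrays, and no ligand's mean was above 5.68 in PBS or, Ifng aside, above 5.81 in SP. A total of 12 were called higher and 0 lower, with a median of 0.34 and only Ifng past 2-fold. Over all rows 21.5% were called higher and 22.6% lower, with a median of 0.10. That median was -0.15 with the rows below the median brightness left out, so dim rows in general leaned upwards on these arrays. The genes of interferon alpha are near-identical copies, so the assignment of signal among them is uncertain. Ifng, which encodes interferon gamma, went from 5.68 ± 0.32 to 6.89 ± 0.73 (SD, n = 4), or 2.31-fold (adjusted p = 0.0220 by limma), with SP values of 7.39, 7.63, 6.27 and 6.26. SP replicates 1 and 2 were the higher pair, as they were for T cell markers (6.39 and 6.60, against 5.55 and 5.57) and NK cell markers (5.55 and 5.56, against 5.06 and 5.07). The same pair was higher for B cell markers (6.56 and 6.89, against 5.76 and 5.87) and dendritic cell markers (5.83 and 5.85, against 5.61 and 5.72). The part of these cells was not tested. By flow cytometry, the study found more interferon gamma protein in lung neutrophils of infected mice. For Ifng too the adjusted p was above the threshold with the methods' t-test (0.0534) and by limma on leaving out PBS replicate 2 (0.0525) or 4 (0.0588) or SP replicate 1 (0.0606). Ifnb1, which encodes interferon beta, had SP values of 4.70, 4.39, 6.88 and 5.37 and PBS values of 4.28 to 4.49. The SP arrays fell in the same order as for Il10, and the mean difference of 0.97 missed the threshold (limma, adjusted p = 0.122), although on centred arrays it was 1.25 (adjusted p = 0.0334). Without SP replicate 3 it was 0.46.

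Among the 5 other genes of the class II receptor family, 1 was higher and 1 lower, with a median of 0.01. Il20rb, a chain of the receptors for IL-19, IL-20 and IL-24, rose 2.51-fold (adjusted p = 0.000185 by limma), from 5.09 ± 0.12 to 6.42, and Il22ra1 was the gene that fell. The cell source of Il22ra1 was not tested. The kinases and factors below the receptors rose in 5 of 7 cases, with a median of 1.33. Jak2 rose 3.34-fold (adjusted p = 5.25e-05), Tyk2 1.91-fold (9.78e-05), Stat2 6.93-fold (1.35e-05) and Irf9 2.52-fold (0.00291). Not called were Jak1, which differed by 0.29 (adjusted p = 0.187), and Stat3, the factor through which IL-10 acts, which went from 12.04 ± 0.22 to 12.19 (0.15, adjusted p = 0.266). Both were called with centred arrays (0.57, adjusted p = 0.0232, and 0.44, adjusted p = 0.0198), and Stat3 was -0.09 after another quantile normalization.

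Inhibitors of these receptors rose in 6 of 8 cases, with a median of 0.96. Socs1, an inhibitor of Janus kinases induced by interferons, rose from 6.17 ± 0.45 to 10.85 (25.5-fold, adjusted p = 4.79e-06 by limma). Usp18, which binds IFNAR2 and dampens type I signalling, rose 5.65-fold (3.88e-06), and Socs3, which is induced by IL-10 and IL-6, rose 2.36-fold (0.00358).

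Genes known to respond to IL-10 in myeloid cells rose in 7 of 11 cases, with a median of 0.68 and 3 at 2-fold. These 3 were Socs3, Il1rn, which encodes the IL-1 receptor antagonist (6.23-fold, adjusted p = 0.00076 by limma), and Hmox1, which encodes heme oxygenase 1 (4.44-fold, 3.64e-05). All of them respond to other stimuli as well. Socs3 was highest in SP replicate 3, the array with the most Il10, at 12.46 against 12.11 to 12.13 on the other SP arrays, and Hmox1 was highest there too at 13.00 (12.53 to 12.64 on the others), whereas Il1rn was not.

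Of 17 factors known to act on Il10 transcription or on its mRNA, 7 rose and 3 fell. Batf, an AP-1 family factor, rose 16.2-fold (adjusted p = 2.73e-05 by limma), Bhlhe40, a repressor of Il10 in T cells and macrophages, 8.54-fold (4.12e-06), Map3k8, the kinase TPL2 upstream of ERK, 5.64-fold (7.38e-05), and Prdm1, which encodes Blimp-1, 4.46-fold (8.76e-06). Among those that fell were Ets1 (2.14-fold) and Irf4 (2.30-fold), named here after their values were seen. Markers of B cells and endothelium fell in the same samples, and the part of such cells in these falls was not tested. The list held both activators and repressors, and its median was 0.33.

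Genes known to respond to type I or III interferon rose in 10 of 10 cases, all by at least 2-fold, with a median of 3.08. Ifit2 rose 49.0-fold (adjusted p = 5.86e-07 by limma), Cxcl10 26.8-fold (0.000166) and Ifit1 13.9-fold (3.56e-05). Mx2 went from 4.94 ± 0.19 (SD, n = 4), barely above background, to 9.58 (adjusted p = 8.5e-07 by limma), and no fold is given for it. Cxcl10 was low in PBS replicate 2 (6.96), without which its difference was 4.16 log2 units in place of 4.75. Genes known to respond to interferon gamma rose in 8 of the 9 with a row, also by at least 2-fold, with a median of 3.45. Cxcl9, a chemokine for T cells, rose 52.9-fold (adjusted p = 0.000124), Gbp3 21.5-fold (3.39e-05) and Nos2, the inducible nitric oxide synthase, 13.9-fold (0.000105). The PBS values of Cxcl9 were 7.53, 4.81, 5.03 and 5.66, of which 4.81 was at background and 5.03 close to it, so its fold is uncertain. Without PBS replicate 1 the difference of Cxcl9 was 6.32 log2 units in place of 5.73. Many of these genes respond to both kinds of interferon. The remaining gene was Ciita, the activator of MHC class II genes, which differed by 0.27 (adjusted p = 0.596). Across the SP arrays, the mean of the type I list lay within 12.40 to 12.53 and that of the type II list within 11.23 to 11.67.

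Genes whose values over the 8 arrays most resembled those of a member changed at 2-fold were listed by Pearson's r, as a description. For Il10 they were Tpbg (r = 0.9967), Cdk5r1 (0.9956) and Olfr720 (0.9929). Cdk5r1, an activator of the kinase CDK5, had SP values of 8.70, 7.90, 10.82 and 9.18 and so showed the same order as Il10, while Olfr720 stayed between 4.57 and 4.98. For Il10ra they were Ets2 (0.9979), Abtb2 (0.9978) and Csrnp1 (0.9957), which share with it the low value in PBS replicate 2. For Il10rb they were Tnfrsf23 (0.9991), Ubap1 (0.9988) and Sema4d (0.9984), and for Ifnar1 they were Skil (0.9979), Rnf114 (0.9972) and N4bp1 (0.9965). No gene appeared under more than 1 member. These arrays share a group difference, which by itself gives a high r to any gene that differs between groups.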

How the data were processed

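Messenger RNA of 8 lung neutrophil samples, 4 PBS and 4 SP as named by their titles, was measured on Affymetrix Mouse Gene 1.1 ST arrays. The deposited log2 values were made by the authors with Affymetrix Expression Console and Partek, per the labels and the study's methods, by robust multi-array averaging (background, GC and sequence correction, quantile normalization, median polish) into 1 value per gene or transcript. The genome build behind them is not given in the sources used here. Quantile normalization can move a gene when many others change, and the deposited array medians were not equal (SP minus PBS, -0.28). Precision is limited by how many arrays each group holds.

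Of 24625 rows, 80.9% were matched by RefSeq accession to a symbol of GRCm38.p6. Limma 3.58.1 in R 4.3.3 (lmFit, eBayes, no covariates, two-sided, Benjamini-Hochberg over all rows, no filter) compared SP with PBS, and the code was tested on simulated data. Other steps used Python 3.11.15. Members, the 8 pathway lists and the 10 marker lists were chosen with earlier results of these data known. Named were all members, of each list at most the 4 largest differences called at 2-fold, fixed genes (among them Ifng, Ifnb1, Jak1, Jak2, Tyk2, Stat2, Stat3, Socs1 and Socs3), flanking genes, the 2 brightest markers of lists described, and the 3 genes most correlated with each member changed at 2-fold. Some genes that the rule names are not reported here. Fabp4, Ly6c2, Foxj1, Ifna6 and Gbp5 had no matched row. Alternatives comprised the t-test equivalent to the one-way ANOVA that the methods name, a robust prior with trend, the replicate block, array weights, arrays centred on medians, a second quantile normalization, dim rows left out, and leaving out each array. A mean over several rows of a gene was not run, since each member had 1.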

Additional observations from a re-analysis of the deposited data

Results flagged for a closer look

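Of 78 groups of 4 arrays examined, 4 held a sample far from the other three by Dixon's criterion, which by chance marks about 1 group in 20. Cxcl10 was at 6.96 in PBS replicate 2 and between 9.19 and 9.45 on the other PBS arrays. Socs1 was at 5.51 in PBS replicate 2 and between 6.34 and 6.44 on the others. Socs3 was at 12.46 in SP replicate 3, against 12.11 to 12.13. The log ratio of Ifnar1 to Ifnar2 was -1.38 in PBS replicate 3, against -1.50 to -1.49. No value of the 8 genes themselves was marked in this way.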

How the results depend on the processing

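The 8 differences were recomputed under 16 alternatives, which gave 128 values. Direction and call were the same in 112 of them. Il10, Il10rb, Ifnar1, Ifnar2 and Ifngr2 kept both throughout, with Il10 between 3.61 and 5.10. Between 6 and 7 genes were called, 3 to 4 at 2-fold, and 45 to 75 pathway genes were called (57 in the main result). Il10ra lost its call in 7 settings and Ifngr1 in 1, as given above. Ifnlr1, never called, changed sign with array weights (0.20), centred arrays (0.25), a second quantile normalization (0.18), both doubtful arrays left out (0.14) and single arrays left out (-0.22 to 0.24). Other changes of sign, all without a call, were those of Il22ra2 (0.12 centred, -0.40 to 0.01 leaving out 1 array, -0.45 without both), Olig1 (-0.08) and Stat3 (-0.09) after the second quantile normalization, and the log ratio of Il10ra to Il10rb (-0.23 to 0.35 leaving out 1 array). Of 48 other named genes, 38 kept direction and call under every alternative run. The cause of these changes was not tested.

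Correlations of same-numbered deviations were 0.016, 0.03, 0.35 and -0.274, and those of differently numbered ones ran from -0.363 to 0.283. They do not settle whether replicate numbers paired the samples. With the replicate block 7 genes were called. The log ratios stayed at 0.59, -1.22 and -1.41, but sign flips within 4 pairs cannot give a p below 0.125 (adjusted p = 0.167 by the exact test).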
